A study of Caenorhabditis elegans with 6 samples.

Results

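The Argonaute genes alg-1, alg-2, rde-1, ergo-1, prg-1, csr-1, wago-1, wago-4 and hrde-1 are 9 of the 46936 genes in the count table. They were chosen by name as microRNA, siRNA and piRNA Argonautes of the worm by a rule that used no measured values. Earlier results of these data were known when the genes were chosen. Each name matched 1 row, and all 9 passed the filter on low counts. A further 14 Argonaute genes of the worm were taken as their family, which makes 23 in all.

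All libraries came from whole N2 wild-type *C. elegans* grown on *E. coli* OP50 at 20 °C and collected on day 2 of adulthood. The 3 control samples grew on plates treated with water. The 3 MProPow2 samples grew, from the L1 larva on, on plates spread with protein powder 2, a batch of hydrolyzed buttermilk protein that contains milk fat globule membrane. Animals of both groups were moved at the L4 stage to plates with 5-fluorouracil (5-FU), which stops the production of progeny, so there is no group without 5-FU. Each library pools many animals and all their tissues, so that fewer cells of one type and less RNA per cell cannot be told apart.

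Argonaute proteins hold a small RNA and use its sequence to find a target RNA. In *C. elegans* the microRNA Argonautes act in most tissues. Primary siRNA Argonautes and the Piwi protein PRG-1 start silencing, and RNA-dependent RNA polymerases then copy the target into 22G-RNAs, which a large worm-specific class of Argonautes (the WAGO proteins and CSR-1) carries, much of it in the germline. The libraries were made from poly-A RNA, so they show the mRNAs of these proteins and neither the proteins nor the small RNAs they bind.

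The libraries held 28859395 to 37501098 counts in control and 29347851 to 32145772 in MProPow2, of which the 9 Argonautes took 61215 to 89248 per library. Ribosomal RNA genes took 0.208% to 1.42% of the counts in control and 0.815% to 1.91% in MProPow2. Over all 14534 genes tested with edgeR, 223 were called higher and 214 lower in MProPow2-treated animals at an adjusted p under 0.05. With upper-quartile instead of TMM scaling this split was 229 higher and 131 lower. As markers of the tissues in a whole animal, lists for oocytes (10 genes), germline stem cells and meiosis (12), intestine (9), muscle (8), neurons (9), epidermis (7) and sperm (10) were summed. Only the lists for sperm and epidermis had genes at 0 in any library, 2 and 1 of them.

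Levels of different genes were compared in FPKM, which divides the reads of a gene by its length and by the depth of the library. The most abundant of the 9 was wago-1, which encodes a P granule Argonaute that carries 22G-RNAs, at 211, 185 and 165 FPKM in control replicates 1, 2 and 3 and at 183, 149 and 228 FPKM in MProPow2 replicates 1, 2 and 3. The least abundant was alg-1, at 20.7, 27.7 and 21.2 FPKM in control and 23.9, 29.0 and 17.4 FPKM in MProPow2. Between these 2 genes the mean level over 6 libraries went from 187 ± 29.0 to 23.3 ± 4.41 FPKM (SD, n = 6). The levels formed an upper and a lower set that did not overlap in any library.

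In the upper set, wago-1 was followed by hrde-1 (118.96 ± 21.03 FPKM), csr-1 (95.5 ± 11.9), prg-1 (77.0 ± 10.2) and ergo-1 (69.6 ± 7.92). Each gene of the upper set was above the next in 6 of 6 libraries, although apart from wago-1 the ranges of neighbours overlapped across libraries. In the lower set, wago-4 (34.8 ± 3.84 FPKM), alg-2 (34.5 ± 3.95) and rde-1 (31.9 ± 2.32) did not differ beyond their spread. The level of wago-4 was above that of alg-2 in only 2 of 6 libraries, and alg-2 was above rde-1 in 4 of 6. The level of rde-1 was above that of alg-1 in 5 of 6 libraries. Of the summed FPKM of the 23 Argonaute genes, the 9 held 66.4% to 68.5%, and wago-1 alone made up 25.7% to 29.6% of the sum of the 9.

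**Figure D1:**
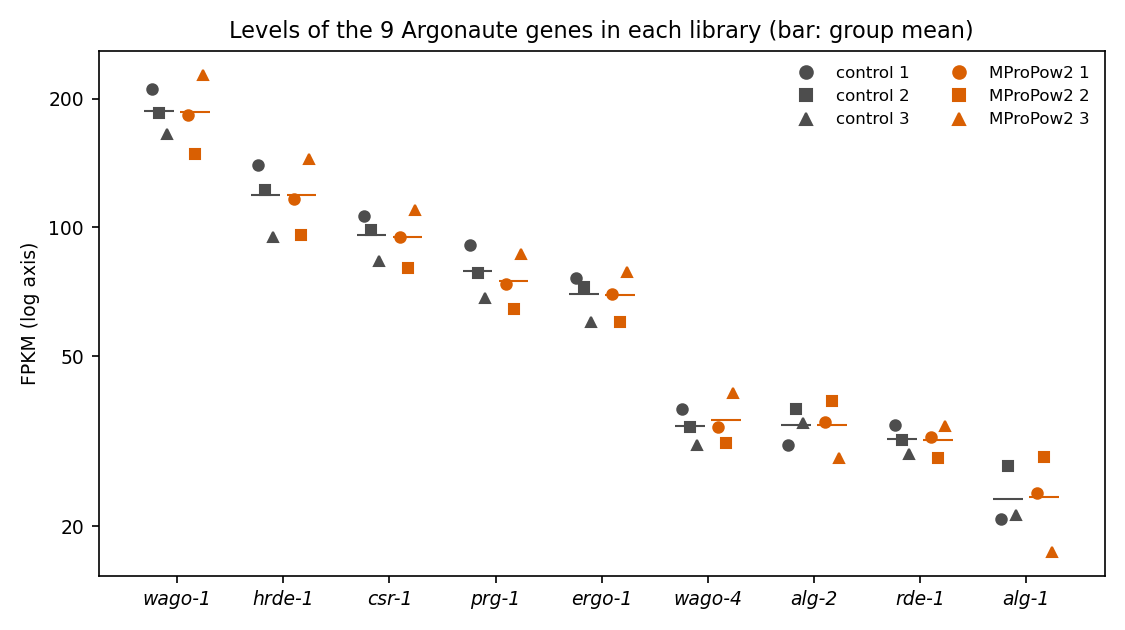
Level of each of the 9 Argonaute genes in FPKM on a log axis, with 1 point per library, control in grey and MProPow2 in orange, and a bar at each group mean. The 5 genes on the left sit above 59 FPKM in every library and the 4 on the right below 41, and the points of the groups overlap in all 9 genes.

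None of the 9 Argonaute mRNAs differed between MProPow2-treated and control animals beyond the spread between replicates. In edgeR, 0 of the 9 were called at an adjusted p under 0.05, against 3.01% of all genes tested. At an unadjusted p under 0.05, 0 of 9 passed (16.9% of all genes did) and 0 were lower or higher (7.75% and 9.13% of all genes were). DESeq2 and limma also called 0 of the 9 and had 0 at an unadjusted p under 0.05. The 3 values of one group lay wholly above or below those of the other in 0 of the 9, against 23.3% of all genes tested. Over the 9 the log2 fold changes ran from -0.089 to 0.041 around a median of -0.015, next to -0.013 for all genes tested.

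The sign of so small a change depends on the scaling, since 7 of the 9 were below 0 with TMM and 1 of the 9 with upper-quartile scaling, where the median of all genes moved to 0.053 and that of the 9 to 0.050. What the data do give is a bound on the change. Over the 9 genes, the 95% intervals of the ratio of MProPow2 to control ran from a lowest bound of 0.76 (alg-1) to a highest bound of 1.33 (alg-1). The standard errors of the 9 log2 fold changes were 0.09 to 0.18, and the median over the 1890 genes of like abundance (mean of 104 to 579 CPM, counts per 1000000 after TMM scaling) was 0.097. All of the 9 but rde-1 were above this median, and so were measured less precisely than a typical gene of like abundance. Of these 1890 genes, 52 were called (2.75%), and the smallest change among them was 0.38 in absolute log2 fold change. The largest among the 9 Argonautes was 0.089, in prg-1.

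ALG-1 and ALG-2, the microRNA Argonautes of the 9, are closely related proteins that carry microRNAs in the soma, and they overlap in function. In control replicates 1, 2 and 3, alg-1 (identifier 181504) stood at 97.6, 130.4 and 100.3 CPM, and in MProPow2 replicates 1, 2 and 3 at 111, 138 and 81.2 CPM. The treated group thus held both the highest and the lowest library, and control lay between them. Its mean was 109 ± 18.2 CPM (SD, n = 3) in control and 110.2 ± 28.6 CPM in MProPow2 (n = 3), with a log2 fold change of 0.0095 (95% interval -0.39 to 0.41, adjusted p = 0.99 from edgeR). For alg-2 (identifier 173468) the values were 130.3, 159 and 148 CPM in control and 145, 168 and 120.5 CPM in MProPow2. The order was the same as in alg-1 at both ends, with MProPow2 replicate 2 highest and replicate 3 lowest. Its means were 146 ± 14.5 and 145 ± 23.8 CPM, and its log2 fold change was -0.011 (95% interval -0.30 to 0.27, adjusted p = 0.98 from the same test). The ratio of alg-2 to alg-1 in FPKM was 1.36 to 1.65 in control libraries and 1.36 to 1.66 in MProPow2 libraries, so that the balance of the pair covered nearly the same range in both groups.

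Among the primary siRNA Argonautes, RDE-1 takes up siRNAs cut by Dicer from long double-stranded RNA and is needed for RNAi by feeding or injection. In control, rde-1 (identifier 179393) was at 113, 104 and 97.3 CPM, and in MProPow2 at 104, 96.0 and 110.9 CPM. It had the least spread of the 9, with a highest library 1.18 times the lowest, and the tightest interval, a ratio of 0.86 to 1.14. ERGO-1 carries 26G-RNAs, endogenous siRNAs that are made with the ERI complex and Dicer. The ergo-1 mRNA (identifier 178602) was at 284, 270.2 and 225 CPM in control and 256, 226 and 289 CPM in MProPow2. The lowest control and the lowest treated library of ergo-1 were nearly equal, as were the highest of each group. Group means were 105 ± 7.88 and 104 ± 7.45 CPM for rde-1 and 259.7 ± 30.6 and 257 ± 31.3 CPM for ergo-1 (control and MProPow2, SD, n = 3 each). Their log2 fold changes were both -0.015 (standard error 0.09 for rde-1 and 0.12 for ergo-1, adjusted p = 0.96 and 0.97 from edgeR).

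PRG-1 is the Piwi protein that binds the piRNAs of the worm, the 21U-RNAs, in germline P granules. In control replicates the prg-1 mRNA (identifier 172515) stood at 246, 212 and 187 CPM, and in the treated replicates at 197, 178 and 233 CPM. Its group mean was 215 ± 29.8 CPM in control and 202 ± 27.9 CPM in MProPow2 (SD, n = 3 each), a difference smaller than either SD. The log2 fold change was -0.089 (95% interval -0.38 to 0.20, adjusted p = 0.80 from edgeR). Without control replicate 1 it was 0.016, and without MProPow2 replicate 3 it was -0.20.

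The other 4 of the 9 carry 22G-RNAs. CSR-1, which is essential, binds 22G-RNAs against expressed germline genes and is known for protecting them from silencing. At 396, 368 and 312 CPM in control and 348, 304 and 405 CPM in MProPow2, csr-1 (identifier 177591) had its highest and its lowest value in treated libraries. The wago-1 mRNA (identifier 172463) was at 655, 577 and 516 CPM in control and at 559, 469 and 700.5 CPM in MProPow2. Here too the treated libraries held both ends of the range. WAGO-4 lies in the Z granules beside the P granules and takes part in the inheritance of silencing. It was measured (wago-4, identifier 174932) at 129, 117 and 107 CPM in control and 115, 109 and 139 CPM in MProPow2. HRDE-1 acts in germline nuclei and is needed for silencing to pass over generations. Its mRNA (hrde-1, identifier 175535) was at 503, 441 and 344 CPM in control and 412, 350.3 and 515 CPM in MProPow2. The 2 groups of hrde-1 values covered almost the same range, from low to high.

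Group means of these 4 genes were close to each other in every case. In control and MProPow2 they were 359 ± 42.8 and 352 ± 50.4 CPM for csr-1, and 583 ± 69.8 and 576 ± 117 CPM for wago-1 (SD, n = 3 each). For wago-4 they were 118 ± 11.03 and 121 ± 15.96 CPM, and for hrde-1 429 ± 80.1 and 426 ± 83.2 CPM. The differences were thus smaller than the SD of either group in all 4. The log2 fold changes were -0.025 for csr-1 (95% interval -0.32 to 0.27), -0.016 for wago-1 (-0.36 to 0.33), 0.041 for wago-4 (-0.21 to 0.29) and -0.012 for hrde-1 (-0.39 to 0.36), with adjusted p of 0.91 to 0.98 from edgeR. In hrde-1 the highest library was 1.498 times the lowest, in wago-1 1.49 times, in csr-1 1.33 times and in wago-4 1.30 times.

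Reads that other genes could lend to these values were few where genes overlap. In the RefSeq gene table alg-1, rde-1, hrde-1, wago-1 and wago-4 overlap no other gene. The partners of the other 4 were low, with at most 3.34 CPM for pei-2 (ergo-1), 2.63 CPM for D2030.12 (prg-1), 0.64 CPM for frpr-10 (csr-1) and 0.19 CPM for a non-coding RNA (alg-2). This does not cover reads that prg-1 may share with its close copy prg-2, which stood at 278 to 369 CPM.

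**Figure D2:**
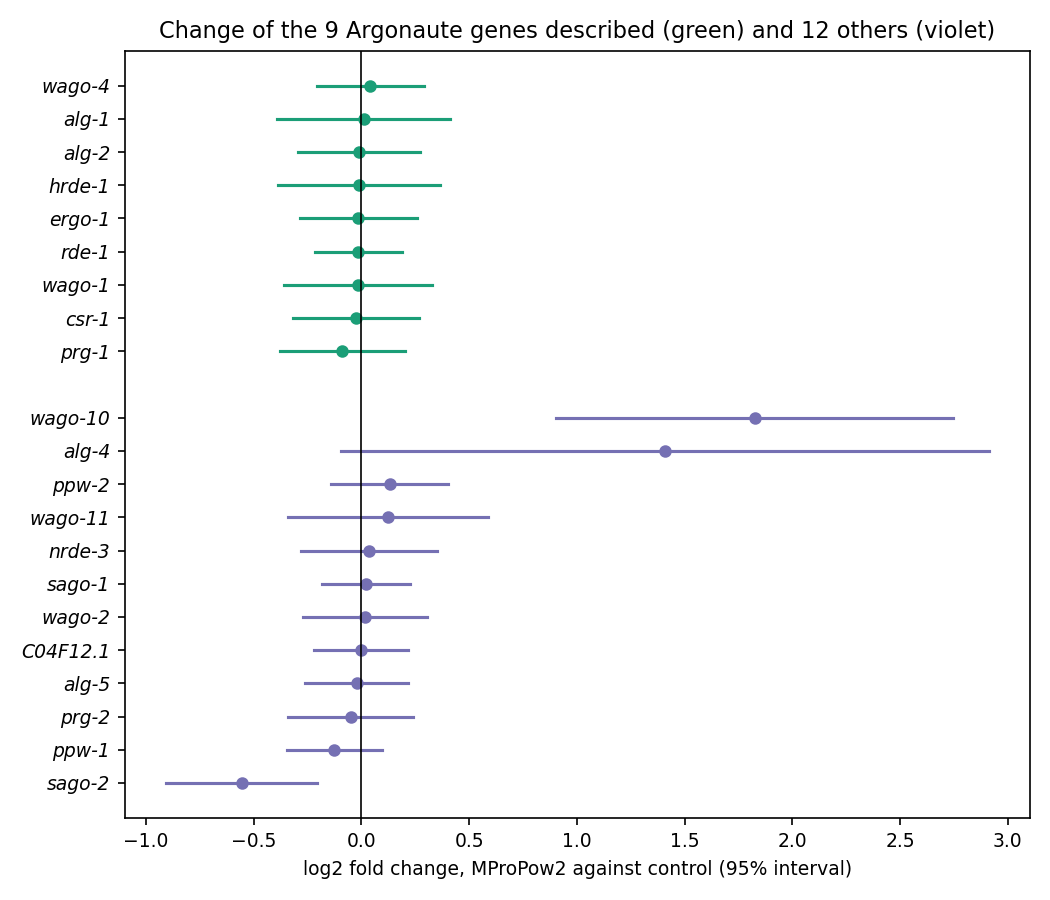
Log2 fold change of MProPow2 against control with its 95% interval from edgeR, for the 9 Argonaute genes described (green) and the 12 other Argonaute genes that passed the filter (violet). All 9 green intervals cross 0 and lie between -0.39 and 0.41, while those of wago-10 and sago-2 do not cross 0.

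Single libraries of the 9 differed by more than the group means did. In 7 of the 9 (rde-1, ergo-1, prg-1, csr-1, wago-1, wago-4 and hrde-1), control replicate 1 and MProPow2 replicate 3 were the 2 highest libraries and control replicate 3 and MProPow2 replicate 2 the 2 lowest. This order was singled out after the values were seen. Of all 14534 genes tested, 4.46% showed it. In alg-1 and alg-2, control replicate 1 and MProPow2 replicate 3 were instead the 2 lowest libraries, as in 12.14% of all genes tested. The summed CPM of the 7 genes was 2326, 2090.2 and 1788 in control replicates 1, 2 and 3 and 1991, 1732 and 2392 in MProPow2 replicates 1, 2 and 3. For alg-1 and alg-2 together it was 228, 289 and 248 CPM in control and 256, 307 and 202 CPM in MProPow2. As a share of the summed FPKM of the 9, this pair ran from 6.03% in MProPow2 replicate 3 to 11.8% in MProPow2 replicate 2.

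Markers of oocytes and of germline stem cells and meiosis varied over the same libraries. The 10 oocyte markers summed to 6328, 5559 and 4627 CPM in control and 4975, 4357 and 6361 CPM in MProPow2, and in 10 of 10 control replicate 1 and MProPow2 replicate 3 were the 2 highest libraries (11.6% of all genes tested). That held for 8 of the 12 stem cell and meiosis markers, whose sum ran from 1467 CPM in MProPow2 replicate 2 to 1966 CPM in MProPow2 replicate 3. It held for 0 of the markers of intestine, muscle, neurons and epidermis, and for 0 of the 5 sperm markers that were tested. Control replicate 1 and MProPow2 replicate 3 were the 2 lowest libraries, as in alg-1 and alg-2, in ajm-1 and elt-3. These are 2 of the 5 epidermal markers that were tested, and lin-26 had control replicate 1 highest. The same 2 libraries were lowest in 2 of 9 neuron markers and 1 of 9 intestinal markers. They were lowest in 0 of 8 muscle markers and 1 of 5 tested sperm markers (12.14% of all genes tested). The epidermal sum, from 208 CPM in MProPow2 replicate 3 to 304 CPM in MProPow2 replicate 2, rests mostly on ajm-1, a gene of epithelial junctions, which went from 105.5 to 193 CPM between the same libraries. The part that germline, epidermal or other tissue content has in the Argonaute values was not tested. Between the groups, the summed ranges overlapped for the oocyte markers (4627 to 6328 CPM in control, 4357 to 6361 CPM in MProPow2) and for the stem cell and meiosis markers (1566 to 1868 and 1467 to 1966 CPM).

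**Figure D3:**
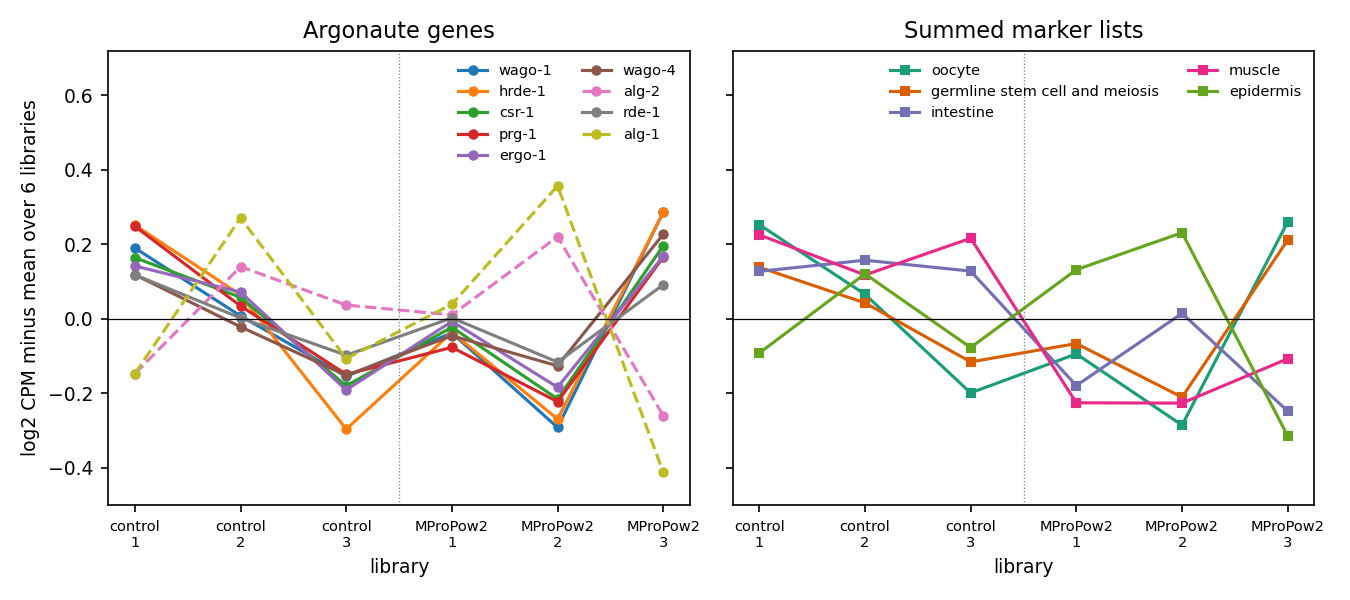
Log2 CPM of each Argonaute gene (left) and of the summed marker lists (right) in each of the 6 libraries, minus its mean over the 6. Solid lines on the left (7 genes) are highest in control replicate 1 and MProPow2 replicate 3, as are the oocyte and stem cell and meiosis lists on the right, while the dashed lines of alg-1 and alg-2 are lowest in those libraries.

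Of the 14 other Argonaute genes, 12 passed the filter on low counts. Of these, 5 had log2 fold changes below 0 and 7 above, around a median of 0.018. Only wago-10 was called, higher in MProPow2 (1.53% of all genes tested were called higher and 1.47% lower). The groups did not overlap in 1 lower and 1 higher gene of the 12, against 23.3% of all genes tested. The genes that encode the Argonautes of spermatogenesis, alg-3 and alg-4, were near the limit of detection, with 1 to 29 reads of alg-3 and 1 to 17 reads of alg-4 per library. Reads of wago-5 numbered 0, 4 and 0 in control and 3, 5 and 10 in MProPow2. Neither alg-3 nor wago-5 was tested. The 8 others with more than 30 CPM had log2 fold changes from -0.13 (ppw-1) to 0.13 (ppw-2, also known as wago-3), with adjusted p of at least 0.59. They are alg-5, a germline microRNA Argonaute, C04F12.1 (also known as vsra-1), prg-2, wago-2, ppw-1, ppw-2, sago-1 and nrde-3, the last a nuclear Argonaute of the soma.

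The nuclear Argonaute nrde-3 stood at 77.1, 98.0 and 84.8 CPM in control and 99.7, 97.3 and 69.8 CPM in MProPow2, lowest in the same 2 libraries as alg-1 and alg-2. The germline gene alg-5 and wago-2 had the order of the other 7, with MProPow2 replicate 3 and control replicate 1 on top. A RefSeq gene table of the worm marks prg-2 as a pseudogene, as it does wago-2 and wago-11, yet prg-2 held 278 to 369 CPM, more than prg-1 in every library. The 2 genes are close copies, so how reads were split between them is uncertain. The log2 fold changes of both were below 0 with TMM, -0.050 for prg-2 and -0.089 for prg-1.

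The gene wago-10 rose on very few reads, 6, 8 and 13 in control replicates and 22, 26 and 43 in MProPow2 replicates. In CPM it went from 0.28 ± 0.12 (SD, n = 3) to 0.99 ± 0.39 (n = 3), and the groups did not overlap. Its log2 fold change was 1.82 (95% interval 0.90 to 2.75, Benjamini-Hochberg adjusted p = 0.049 in the quasi-likelihood test of edgeR). It was not called when any 1 of the 6 libraries was left out (adjusted p of 0.055 to 0.18). With limma its log2 fold change was 1.11 on log2(FPKM + 0.1) and 0.26 on log2(FPKM + 1), a scale that shrinks changes of so low a gene by construction, and it was not called (adjusted p of 0.31 to 0.38). In the same libraries the 10 sperm markers summed to 12.7 to 14.03 CPM in control and 14.1 to 19.4 CPM in MProPow2. This sum rests mostly on spe-41 (7.01 to 10.1 CPM) and ssp-10 (1.57 to 4.06 CPM). It was highest in MProPow2 replicate 2, while wago-10 was highest in MProPow2 replicate 3. Of the 5 sperm markers that were tested, 2 were higher at an unadjusted p under 0.05 (against 9.13% of all genes tested) and 0 were called. Their part in the wago-10 values was not tested.

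The largest difference among Argonautes on more than 100 reads was in sago-2, a gene of the WAGO class that takes part in secondary siRNA silencing. It stood at 17.1, 15.4 and 13.7 CPM in control and 10.7, 12.2 and 8.57 CPM in MProPow2. All treated values lay below all control values (two-sided exact permutation p = 0.1, which no split of 3 and 3 can go below). The log2 fold change was -0.56 (95% interval -0.91 to -0.21, unadjusted p = 0.0055, adjusted p = 0.10 from edgeR), so it was not called. Of 15 alternatives, DESeq2 (adjusted p = 0.025) and edgeR with no filter (0.017) called it, and in the others the adjusted p was up to 0.31. The gene eme-1 overlaps sago-2 in the RefSeq table and was at 39.8 to 49.0 CPM, above sago-2 in each library, and without a stated strand setting the reads of the 2 cannot be told apart where they overlap. Beside this, all 9 intestinal markers had log2 fold changes below 0 (median -0.29, 6 at an unadjusted p under 0.05 and 0 called), and their sum was 1571 to 1604 CPM in control and 1211 to 1453 CPM in MProPow2. Of the muscle markers 8 of 8 were below 0 and 4 were called, with sums of 1518 to 1636 CPM in control and 1196 to 1299 CPM in MProPow2. Over all 14534 genes tested, 7688 were below 0, 7.75% were lower at an unadjusted p under 0.05 and 1.47% were called lower. The part of intestinal or muscle content in the sago-2 values was not tested.

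Genes that act with the Argonautes, and the classical targets of microRNAs, were followed in 9 lists with 90 gene names, of which 89 were found in the table and tested. Of the 89, 52 had log2 fold changes below 0 and 37 above (median -0.031), and 1 was called, lower in MProPow2. Of all 14534 genes tested, 7688 were below 0, with a median of -0.013, and 1.47% were called lower. At an unadjusted p under 0.05 from edgeR, 4 of the 89 were lower and 2 higher (7.75% and 9.13% of all genes tested). The groups did not overlap in 9 lower and 3 higher genes of the 89, against 23.3% of all genes tested. Of the RNA-dependent RNA polymerases and their partners, which make the 22G-RNAs and 26G-RNAs, 0 of 6 were called. The germline polymerase ego-1 and the somatic rrf-1 had log2 fold changes of -0.064 and 0.077. In this list rrf-2 stood apart, at 24.0, 31.5 and 31.6 CPM in control and 49.1, 53.4 and 35.4 CPM in MProPow2, with no overlap. Its log2 fold change was 0.66 (adjusted p = 0.067 from edgeR), and 3 of its 15 alternatives called it. These were DESeq2 (adjusted p = 0.0025), edgeR with no filter (5.5e-05) and edgeR without MProPow2 replicate 3 (5.7e-04), while in the other alternatives the adjusted p was up to 0.29. The gene ekl-1, which encodes a Tudor protein, was at -0.075 (adjusted p = 0.74).

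Dicer and its ERI partners had 0 of 9 called, with a median of -0.012. Dicer itself, dcr-1, which cuts long double-stranded RNA and microRNA precursors, was at 0.011. The genes of smallest p were eri-1, which encodes an exonuclease (-0.15, adjusted p = 0.41), eri-6 (0.19, adjusted p = 0.46) and eri-5 (-0.16, adjusted p = 0.52). In the Mutator complex and its 22G factors, where 22G-RNAs are amplified, 0 of 13 were called (median -0.070). Of the 13, 10 were below 0, as were 7688 of all 14534 genes tested. The largest differences by p were in mut-15 (47.2 against 40.97 CPM, log2 fold change -0.20, adjusted p = 0.29) and nyn-1 (27.7 against 23.5 CPM, -0.24, adjusted p = 0.30). The groups of both did not overlap, as in 23.3% of all genes tested. The next by p was mut-2 (-0.13, adjusted p = 0.60). In the P and Z granule list 0 of 11 were called, with a median of -0.012. The gene znfx-1, which encodes a helicase of the Z granules beside WAGO-4, was at 0.099, pid-2 at 0.20 (adjusted p = 0.39) and deps-1, a P granule gene, at -0.17 (adjusted p = 0.66). In 9 of those 11, control replicate 1 and MProPow2 replicate 3 were again the 2 highest libraries.

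In piRNA biogenesis 0 of 14 were called and the median was -0.092. Of the 14, 11 were below 0, as were 7688 of all 14534 genes tested. At an unadjusted p under 0.05, tofu-6 (-0.24, adjusted p = 0.22 from edgeR) and tofu-1 (-0.22, adjusted p = 0.30) were lower (7.75% of all genes tested were). Their groups did not overlap, as in 23.3% of all genes tested. Both tofu genes were identified in screens for 21U-RNA production. The next, pid-3, was at -0.14 (adjusted p = 0.44). The nuclear RNAi and H3K9 methylation list, with the partners of HRDE-1 and NRDE-3, had 0 of 9 called and a median of -0.0034. The ends of its range were set-32, a histone methyltransferase gene, at -0.22 and emb-4 at 0.11, and hrde-2 was at -0.17 (adjusted p = 0.53). For microRNA processing and silencing 0 of 13 were called and the median was 0.038. The GW182-like partners of ALG-1 and ALG-2, ain-1 and ain-2, were at 0.056 and 0.12, and the Drosha gene drsh-1 at -0.0079. The exonuclease gene xrn-2 was at -0.14 (adjusted p = 0.40), the deadenylase gene ccf-1 at -0.14 (adjusted p = 0.42) and nhl-2, which encodes a cofactor of the microRNA complex, at 0.13 (adjusted p = 0.70).

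The 1 partner gene called was in the systemic RNAi list, where 0 of the other 6 were called. It was sid-2, whose protein takes up double-stranded RNA from the gut lumen. It fell from 21.3, 19.0 and 21.4 CPM in control replicates to 10.9, 15.1 and 13.7 CPM in MProPow2 replicates, so that the groups did not overlap. The log2 fold change was -0.64 (95% interval -0.95 to -0.32, adjusted p = 0.045 from edgeR). Leaving out any control replicate, or MProPow2 replicate 1, ended the call (adjusted p of 0.11 to 0.15), as did upper-quartile scaling, a minimum of 10 counts in every library and limma (0.055 to 0.16). With the replicate block sid-2 was not called either, and 5 of its 15 alternatives called it. The intestinal and muscle markers given beside sago-2 were lower in the same libraries, and their part in the sid-2 values was not tested. For sid-1, which encodes the channel for double-stranded RNA between cells, the log2 fold change was -0.061 (adjusted p = 0.86), and for sid-5 and rsd-2 it was 0.27 (adjusted p = 0.35) and -0.065 (adjusted p = 0.80).

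Of the classical targets of microRNAs, 0 of 7 were called (median of the log2 fold changes 0.015). Whether the activity of ALG-1 and ALG-2 on them changed was not tested. The genes lin-14, lin-28 and lin-41, targets of lin-4 and let-7 in development, were at -0.031, 0.015 and -0.058. The largest difference was in daf-12, a nuclear hormone receptor gene that let-7 family microRNAs repress. It was at 14.96, 16.9 and 13.4 CPM in control and 18.9, 21.3 and 21.2 CPM in MProPow2, with no overlap. Its log2 fold change was 0.44 (unadjusted p = 0.0060, adjusted p = 0.11 from edgeR), and of 15 alternatives only DESeq2 called it (adjusted p = 0.036). The heterochronic gene hbl-1 was at 0.15 (adjusted p = 0.82) and cog-1, a target of lsy-6, at -0.14 (adjusted p = 0.84).

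**Figure D4:**
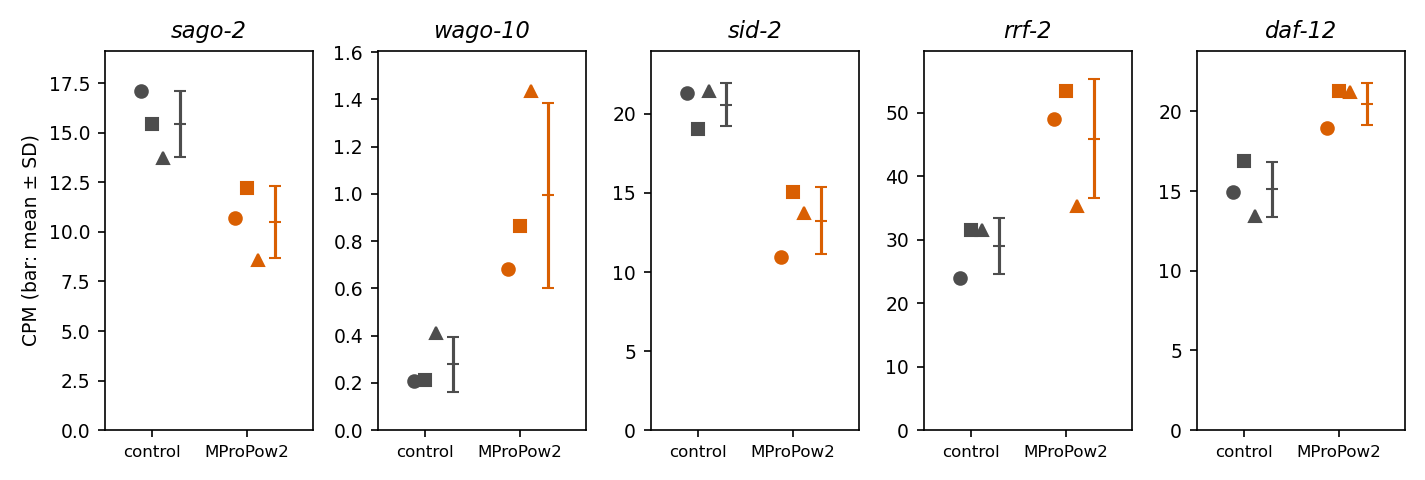
CPM of sago-2, wago-10, sid-2, rrf-2 and daf-12 in each library (circles, squares and triangles are replicates 1, 2 and 3), with the mean ± SD of each group of 3, chosen after their values were seen. In all 5 genes the control and MProPow2 points do not overlap, as in 23.3% of all genes tested. By edgeR only wago-10 and sid-2 passed the adjusted threshold.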

How the data were processed

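Reads were mapped by the authors with HISAT2 and counted per gene with FeatureCounts, and the raw counts were deposited. FPKM values were deposited too. Not given in the sources used here are the genome build, annotation and strand setting, so no coordinates are printed. A RefSeq gene table (WBcel235) held 46920 of the 46936 identifiers and was used for names, gene classes and overlaps. No sequences of these genes were used here.

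The test was edgeR 4.0.16 on the deposited counts in R 4.3.3 (filterByExpr with a minimum count of 10, TMM, quasi-likelihood F test, Benjamini-Hochberg adjustment over 14534 genes, threshold 0.05). The 95% intervals take the standard error as the log2 fold change divided by the root of F, with the t quantile of the test's degrees of freedom. The fits were tested on simulated data. Depth and the spread of 3 libraries per group set the precision. Any 2 replicates differed by more than sampling noise (chi-square of at least 14.7 per degree of freedom). The labels call the replicates biological without saying how they were kept apart, so p-values set the group difference against the spread between these samples.

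Alternatives were RLE and upper-quartile scaling, no filter or a minimum of 10 counts in all libraries, DESeq2 1.42.0, a replicate block and leaving out each library. Limma 3.58.1 was run on log2(FPKM + 1), also unfiltered, and on log2(FPKM + 0.1), with a minimum mean FPKM of 0.1 otherwise. Members and gene lists were chosen with earlier results of these data known. Named genes are the 9 members and, per list, those called and the 3 of smallest p. The genes ego-1, dcr-1, ain-1, ain-2, drsh-1, sid-1, lin-14, lin-28, lin-41 and the other Argonautes were named for their role or after their values were seen.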

Additional observations from a re-analysis of the deposited data

How the results depend on the processing

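Under all 15 alternatives, edgeR, DESeq2 or limma called 0 of the 9 Argonautes, with 0 at an unadjusted p under 0.05. Their median log2 fold change ran from -0.11 to 0.068 when single libraries were left out. The sign turned in single genes whose change was near 0. With upper-quartile scaling, the log2 fold changes were 0.057 (alg-2), 0.050 (ergo-1), 0.039 (csr-1), 0.050 (rde-1), 0.052 (hrde-1), 0.047 (wago-1) and 0.00057 (rsd-2). For hrde-1 it was 0.00048 with RLE and 0.00047 in DESeq2. For alg-1 it was -0.010 with a replicate block, and -0.0019, -0.0027 and -0.0019 with limma on log2(FPKM + 1), on log2(FPKM + 0.1) and with no filter. With 1 library left out, the ranges were -0.19 to 0.19 (alg-1), -0.13 to 0.10 (alg-2), -0.11 to 0.068 (ergo-1), -0.20 to 0.016 (prg-1), -0.14 to 0.069 (csr-1), -0.068 to 0.038 (rde-1), -0.17 to 0.11 (hrde-1), -0.18 to 0.11 (wago-1), -0.073 to 0.11 (wago-4), -0.0024 to 0.25 (nhl-2), -0.087 to 0.34 (hbl-1) and -0.34 to 0.054 (cog-1).

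Of the other Argonautes, 1 was called in edgeR with TMM, against 2 with no filter and 2 in DESeq2. It was 0 with at least 10 counts in every library (where wago-10 is not tested), with the replicate block, with limma in each of 3 settings, and without any single library (0 to 0). Of the pathway genes, 1 was called, against 3 in DESeq2, 2 with no filter, 0 with upper-quartile scaling, 0 with at least 10 counts in every library, 0 with the replicate block, 0 with limma, and 0 to 2 with 1 library left out. The cause was not tested.

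Over all genes, 223 higher and 214 lower calls became 386 and 356 in DESeq2, 684 and 542 with no filter, 90 and 102 with the replicate block, 37 and 60 with limma on log2(FPKM + 1), 66 and 82 on log2(FPKM + 0.1), and 12 and 33 on log2(FPKM + 1) with no filter. They ran from 17 and 55 without control replicate 2 to 627 and 417 without MProPow2 replicate 3. Same-numbered libraries did not deviate together (correlations of -0.048, 0.096 and -0.12), and no treated library correlated best with the control library of its number. With 3 libraries per group, these correlations cannot show whether same-numbered samples were grown or prepared together. Depth was not limiting for the 9 genes, which had at least 2434 reads in every library, and it limits alg-3, alg-4, wago-5 and wago-10.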

Other observations

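Loci of the small RNAs that Argonautes carry are also listed in the count table, although poly-A libraries are not made to hold such short RNAs. Of 15363 piRNA loci, 1947 had a read in any library, and nearly all were too low to be tested. Reads at piRNA loci made up 27.9, 37.9 and 32.8 per 1000000 counts in control replicates 1, 2 and 3 and 50.5, 50.8 and 43.8 per 1000000 in MProPow2 replicates 1, 2 and 3. The groups did not overlap (two-sided exact permutation p = 0.1, which no split of 3 and 3 can go below). The values rest on 806 to 1622 reads per library. Of 260 microRNA loci, 104 had a read in any library, and their reads made up 5.20 to 6.53 per 1000000 in control and 6.76 to 9.13 per 1000000 in MProPow2. In the same libraries the number of genes with at least 1 read was 20219 to 21175 in control and 21798 to 22162 in MProPow2. Whether the reads at these loci come from genes that overlap them was not tested.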
